A study of Mus musculus with 2 samples.

Results

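The genes described here encode transcription factors that bind DNA by its sequence, other than those named Zfp. They were found by their symbols, with 1 fixed set of name patterns (forkhead, homeobox, GLI, RUNX, nuclear receptor and other family names), and 80 of the 3134 genes in the deposited table matched. The patterns read names only, but a gene also had to pass the count limit of the table to be listed. Of the 80 genes, 77 encode factors with a DNA-binding domain. The other 3 share only the name: Runx1t1 encodes a corepressor, Atf7ip encodes a partner of a histone methyltransferase, and Tcf19 encodes a chromatin-associated protein.

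The RNA came from NIH3T3, an established mouse fibroblast cell line, and was measured by eCLIP, in which ultraviolet light joins proteins to the RNA that they touch. One group was the RNA precipitated with an antibody against HP1 alpha, the heterochromatin protein encoded by Cbx5. The other group was made with no antibody and is labelled input. Each group had 1 library of untreated cells of the same line, so no difference below has a replicate check, and the values compare these 2 libraries only. The table lists a gene only where 1 of its 2 counts reaches 100, and the listed counts add up to 513965 for HP1 alpha and 830031 for the input. Of 10 fibroblast marker genes, 7 were listed, among them Col1a1, Fn1 and Vim. The 10 markers of epithelial, endothelial and immune cells were not among the listed genes.

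Transcription factors read short DNA motifs through a few kinds of domain, such as zinc fingers, homeodomains, forkheads and basic zippers, and recruit coactivators or corepressors to the genes that they control. HP1 alpha binds methylated histone H3 in silent chromatin, and its hinge region also binds RNA. The measurement therefore concerns the RNA transcribed from these genes and says nothing of the factors as proteins. Many genes of developmental factors are long and consist mostly of intron, whereas a few, such as Jun, Sox4 and Foxc1, have no intron.

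The transcription factor RNAs took a larger part of the HP1 alpha library than of the input. They held 25134 counts there, or 4.89% of the listed counts (4.83 to 4.95, exact binomial 95% interval), against 31862 counts or 3.84% (3.80 to 3.88) of the input. The ratio of these shares was 1.27 (1.25 to 1.30). Ratios throughout are HP1 alpha over input, each count being divided by its library's listed total. The brackets hold an exact 95% interval. It covers the error of counting alone, and PCR copies of a molecule may be among the reads. Without the 6 most abundant genes the ratio of the shares was 1.20 (1.17 to 1.22).

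Gene by gene, the median ratio of the 80 was 1.10, or 0.14 on the log2 scale, beside -0.21 for all listed genes. A ratio above 1 was found for 48 of the 80 genes, or 60.0%, beside 30.9% of all listed genes. The interval lay above 1 for 31 of the 80, or 38.8%, beside 15.4% of all listed genes. It lay below 1 for 11, or 13.8%, beside 32.6%, and it included 1 for the other 38. The median of the whole table thus lay below 1, and scaling with TMM or DESeq2 factors adds 0.20 or 0.21 to every log2 ratio. Relative to the median of all listed genes, which no such scaling changes, 64 of the 80 genes were above it and 16 were below it.

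Large ratios were rare. A gene was called higher or lower where its ratio passed 2-fold and its interval excluded 1. Only Glis1 was higher, which is 1.25% of the 80 genes beside 2.36% of all listed genes. No gene of the 80 was lower, beside 0.830% of all listed genes. With 1.5-fold in place of 2-fold, 14 were higher, or 17.5% beside 7.63% of all, and 5 were lower, or 6.25% beside 12.3% of all. The transcription factor genes thus stood above the table at 1.5-fold. At 2-fold so few of the 80 were called that their share cannot be set apart from that of all listed genes.

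**Figure D1:**
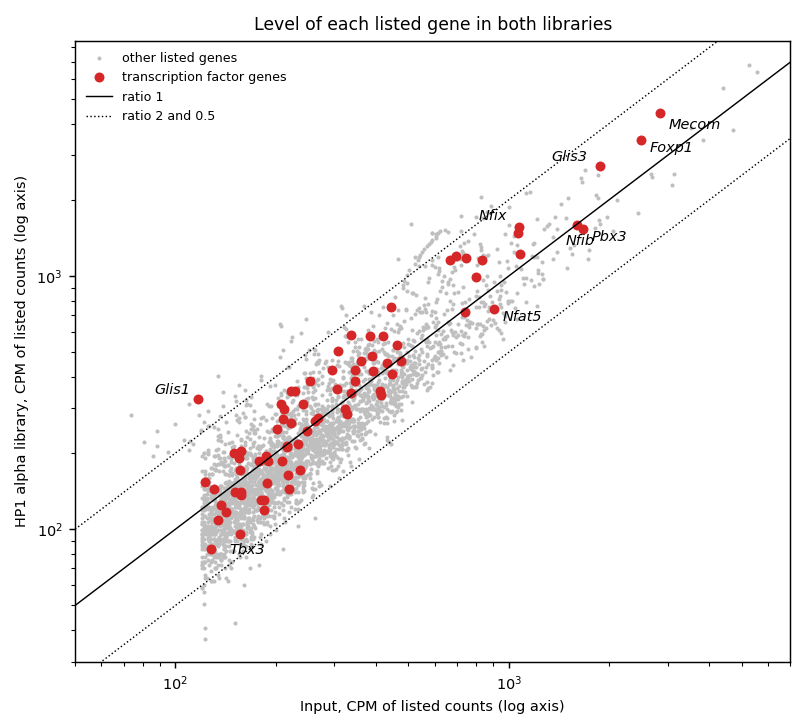
Level of every listed gene in the input (x axis) and with HP1 alpha (y axis), both as CPM, each count over its library's listed total, on log axes, with 77 of the transcription factor genes in red. Most red points lie between the lines of ratio 0.5 and 2, Glis1 lies above the upper line, and Mecom, Foxp1 and Glis3 lie at the upper right above the line of ratio 1.

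A few genes supplied much of the signal. Mecom, a zinc finger factor known from blood stem cells and leukaemia, had 2269 counts with HP1 alpha and 2358 in the input, which ranks it 5 and 10 among all listed genes. Its ratio was 1.55 (1.47 to 1.65), with a narrow interval that reflects these counts.

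Foxp1, a forkhead repressor, had 1777 counts with HP1 alpha and 2065 in the input, a ratio of 1.39 (1.30 to 1.48). Glis3, a zinc finger factor related to the GLI proteins, had 1399 and 1556 counts, for a ratio of 1.45 (1.35 to 1.56). Not every gene among the 6 most abundant shared this excess. Pbx3, a homeodomain partner of HOX proteins, had 791 and 1382 counts, for a ratio of 0.924 (0.846 to 1.01). Nfib, a nuclear factor I gene, had 816 and 1327 counts, for a ratio of 0.993 (0.909 to 1.08). Together the 6 genes held 39.3% of the transcription factor counts with HP1 alpha and 35.5% in the input.

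In GRCm38.p6, RefSeq places Mecom (ENSMUSG00000027684.12) on chromosome 3 from 29951296 to 30509759. Foxp1 (ENSMUSG00000030067.13) lies on chromosome 6 from 98925342 to 99522746. Glis3 (ENSMUSG00000052942.9) lies on chromosome 19 from 28258851 to 28680265. Their spans, from first to last base with introns, were 558, 597 and 421 kb, and the deposited counts do not show where within a span the reads fell.

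**Figure D2:**
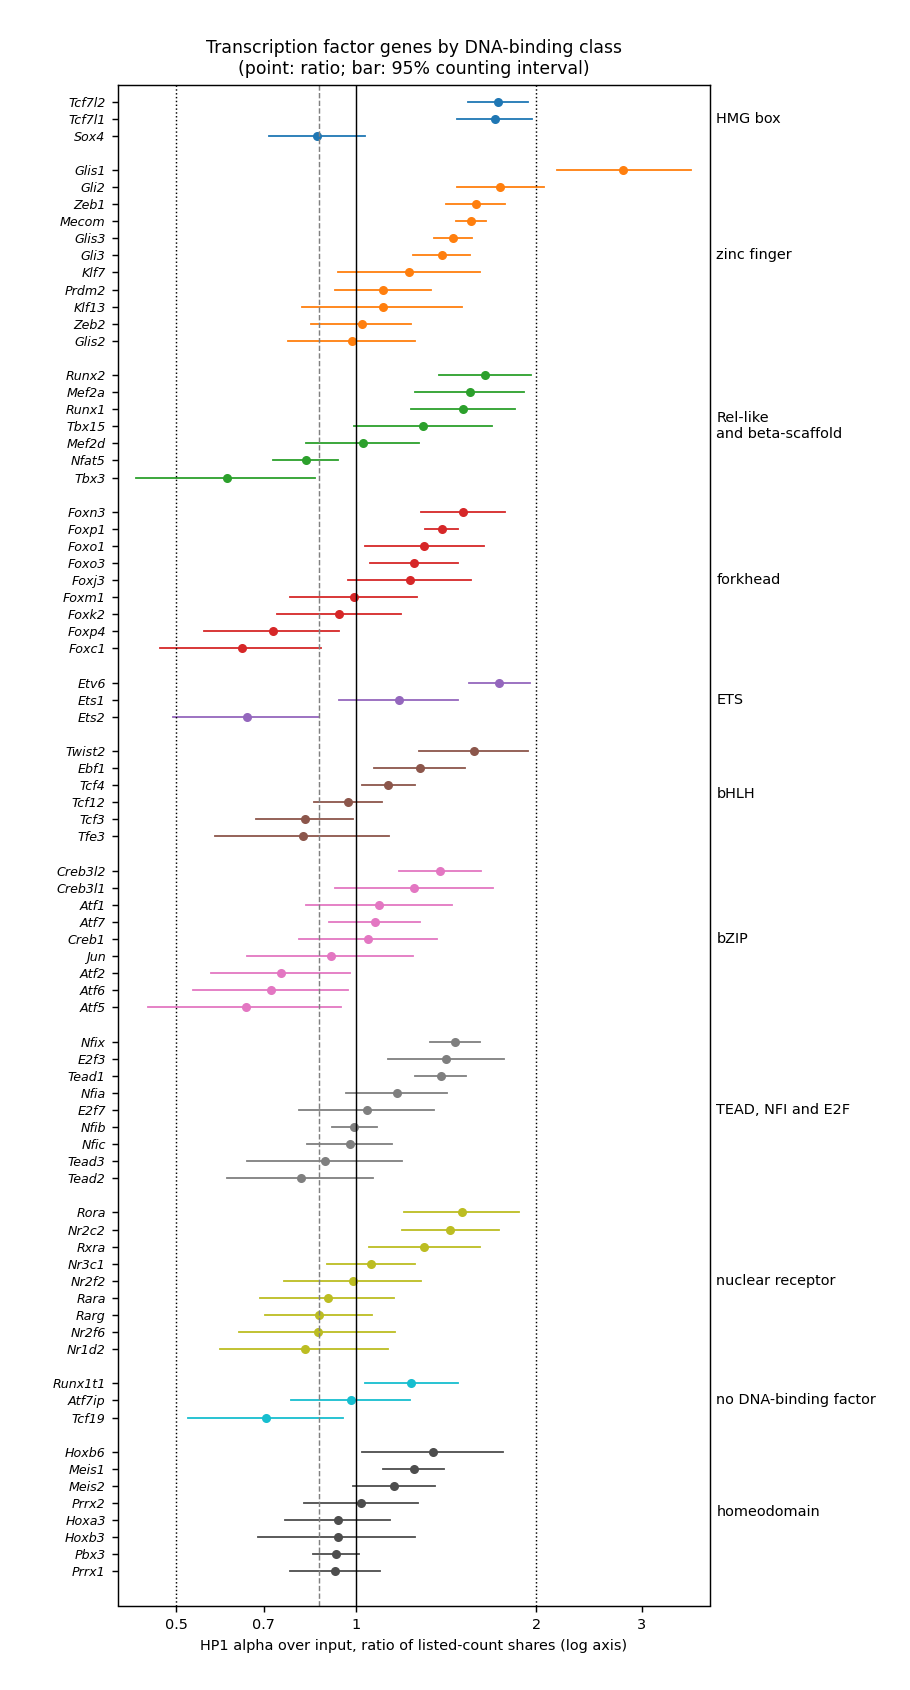
Ratio of HP1 alpha over input for 77 of the genes (points, log axis) with its 95% counting interval (bars), grouped by DNA-binding class and ordered by class median. The solid line marks a ratio of 1, the dashed line the median of all listed genes and the dotted lines 2-fold. Zinc finger genes lie mostly to the right, Glis1 alone lies beyond 2-fold with its whole interval, and forkhead genes are spread on both sides.

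Zinc finger genes had the most members above 1. Of 12 listed, 11 had a ratio above 1, 7 had an interval above 1 and none had an interval below 1. The shares of all listed genes were 30.9%, 15.4% and 32.6% in the same order. The median log2 ratio of the class was 0.51, beside -0.21 for all listed genes. Glis1, a factor known for aiding reprogramming to pluripotency, had 168 counts with HP1 alpha and 97 in the input and a ratio of 2.80 (2.17 to 3.63), above 99.8% of the listed genes. It lies on chromosome 4 from 107426636 to 107635061. Its input count does not reach the 100 needed for listing, so its HP1 alpha count alone brought it into the table, which fixed a ratio above 1 though not its size. The authors' deposited table gives it a fold of 2.88, scaled by the total of mapped reads.

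The GLI genes, which encode the transcription factors at the end of the Hedgehog pathway, both stood above 1. Gli2, the main activator, had 302 counts with HP1 alpha and 280 in the input, a ratio of 1.74 (1.48 to 2.06). Gli3, which acts mostly as a repressor, had 595 and 692 counts, for a ratio of 1.39 (1.24 to 1.55). Zeb1, a repressor of epithelial genes, had 605 and 617 counts, for a ratio of 1.58 (1.41 to 1.77). The intervals of Klf7, Prdm2, Klf13, Zeb2 and Glis2 included 1, with ratios between 0.983 and 1.23.

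The HMG box class held the Wnt pathway factors Tcf7l1 and Tcf7l2, which bind beta-catenin, and Sox4. Tcf7l2 had 614 counts with HP1 alpha and 575 in the input, a ratio of 1.72 (1.54 to 1.94). Tcf7l1 had 387 and 367 counts, for a ratio of 1.70 (1.47 to 1.97). Sox4, a gene without introns, had 181 and 340 counts, for a ratio of 0.860 (0.714 to 1.03). In contrast to the Wnt factors, Sox4 lay close to the median of the table.

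The 3 ETS genes lay on both sides of 1, with ratios from 0.657 to 1.73. Etv6, a repressor known as a fusion partner in leukaemia, had 595 counts with HP1 alpha and 554 in the input and a ratio of 1.73 (1.54 to 1.95). Ets1 had 135 and 185 counts, for a ratio of 1.18 (0.937 to 1.48). Ets2 had 74 and 182 counts, for a ratio of 0.657 (0.494 to 0.865). These 3 genes differ in span, which was 234, 122 and 18.6 kb in the same order.

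RUNX, MEF2, T-box and NFAT genes formed a class of 7, of which 3 had an interval above 1 and 2 had one below 1. Of all listed genes, 15.4% had an interval above 1 and 32.6% had one below 1. Runx2, the master regulator of bone formation, had 260 counts with HP1 alpha and 256 in the input, a ratio of 1.64 (1.37 to 1.96). It overlaps Supt3, another listed gene, whose ratio was 1.49, so reads could have been shared between them. Runx1, its counterpart in blood formation, had 197 and 211 counts, for a ratio of 1.51 (1.24 to 1.84). Mef2a, a MADS box factor of muscle and other tissues, had 181 and 189 counts, for a ratio of 1.55 (1.25 to 1.91).

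At the other end of this class, Tbx3, a T-box repressor, had the lowest ratio of all 80 genes. It had 49 counts with HP1 alpha and 130 in the input, a ratio of 0.609 (0.429 to 0.852). With so few HP1 alpha counts it was listed through the input alone, which fixed a ratio below 1. The same holds for Foxc1, Atf5, Tfe3 and Nr1d2, which makes 5 genes. Nfat5, the factor of the response to osmotic stress, had 382 and 750 counts, for a ratio of 0.823 (0.725 to 0.932). Its counts were well above the listing limit in both libraries.

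Forkhead genes lay on both sides of 1. Of 10 listed, 4 had an interval above 1, beside 15.4% of all listed genes, and 3 had one below 1, near the 32.6% of all listed genes. Foxn3, a repressor, had 298 counts with HP1 alpha and 319 in the input, a ratio of 1.51 (1.28 to 1.77). Foxo1 and Foxo3, which insulin signalling keeps out of the nucleus, had ratios of 1.30 (1.03 to 1.63) and 1.25 (1.05 to 1.48). Foxc1, a mesenchymal factor whose gene has no intron, had 61 and 153 counts, for a ratio of 0.644 (0.470 to 0.872). Foxp4 had 88 and 196 counts, for a ratio of 0.725 (0.557 to 0.937). Foxm1, the cell cycle factor, had 110 and 179 counts, for a ratio of 0.992 (0.775 to 1.27), and the intervals of Foxj3 and Foxk2 also included 1.

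Of the 9 homeodomain genes, 3 had an interval above 1, among them Meis1 and Hoxb6, and none had one below 1. The shares of all listed genes were 15.4% above and 32.6% below. Meis1, which binds DNA together with PBX proteins, had 511 counts with HP1 alpha and 661 in the input, a ratio of 1.25 (1.11 to 1.40). Hoxb6 had 103 and 124 counts, for a ratio of 1.34 (1.02 to 1.76), and it spans only 8.76 kb. Hoxa3 and Hoxb3 had ratios of 0.931 and 0.930. The RefSeq spans of these 2 genes contain other HOX genes, so reads there cannot be assigned to 1 gene with certainty. The limb and craniofacial factors Prrx1 and Prrx2 had 0.921 and 1.02, both with intervals that included 1.

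Nuclear receptors, which are factors switched by lipid ligands, had a median log2 ratio of -0.015. Of 9 listed, 3 had an interval above 1, beside 15.4% of all listed genes. Rora, a circadian regulator, had 160 counts with HP1 alpha and 172 in the input, a ratio of 1.502 (1.20 to 1.87). Nr2c2, an orphan receptor, had 218 and 245 counts, for a ratio of 1.44 (1.19 to 1.73). Rxra, the common partner of many receptors, had 161 and 200 counts, for a ratio of 1.30 (1.05 to 1.61). The retinoic acid receptor genes Rara and Rarg had 0.896 (0.691 to 1.16) and 0.867 (0.704 to 1.06). The glucocorticoid receptor gene Nr3c1 had 234 and 357 counts, for a ratio of 1.06 (0.894 to 1.25). The interval of every one of the 6 remaining receptors included 1.

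Of the 9 bZIP genes, 3 had an interval below 1, a share near the 32.6% of all listed genes. Atf2, a stress-activated factor, had 84 counts with HP1 alpha and 181 in the input, a ratio of 0.749 (0.572 to 0.976). Atf6, a sensor of stress in the endoplasmic reticulum, had 67 and 150 counts, for a ratio of 0.721 (0.533 to 0.968). Atf5 had 43 and 106 counts, for a ratio of 0.655 (0.449 to 0.942), and overlaps the listed nuclear pore gene Nup62, whose ratio was 0.813. Creb3l2, which encodes another factor released from the endoplasmic reticulum membrane, went the other way with 297 counts with HP1 alpha and 348 in the input, a ratio of 1.38 (1.18 to 1.61). Atf7 had 1.07 (0.901 to 1.28), and Jun, the AP-1 subunit, had 64 and 114 counts, for a ratio of 0.907 (0.657 to 1.24).

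Among the 6 genes in the bHLH class, Twist2, a mesenchymal factor, had the highest ratio, with 180 counts with HP1 alpha and 185 in the input. Its ratio was 1.57 (1.27 to 1.94). The E protein genes, whose products pair with tissue-specific bHLH factors, lay on both sides of 1. Tcf4 had 628 and 896 counts, for a ratio of 1.13 (1.02 to 1.25), but relative to listed genes of like span its value was 0.807, with an interval below 1. Tcf12 had 369 and 615, for 0.969 (0.849 to 1.10). Tcf3 had 174 and 343 counts, for a ratio of 0.819 (0.679 to 0.986). Ebf1, a related factor of B cell and fat cell development, had 237 and 300 counts, for a ratio of 1.28 (1.07 to 1.52).

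In the class of TEAD, NFI and E2F genes, 3 of 9 had an interval above 1, beside 15.4% of all listed genes. Nfix had 804 counts with HP1 alpha and 889 in the input, a ratio of 1.46 (1.33 to 1.61). Tead1, through which the Hippo pathway effector YAP binds DNA, had 757 and 884 counts, for a ratio of 1.38 (1.25 to 1.53). E2f3, a cell cycle activator, had 154 and 176 counts, for a ratio of 1.41 (1.13 to 1.76). Of the 3 genes that encode no DNA-binding factor, Runx1t1 had 1.24 (1.03 to 1.48), Atf7ip had 0.980 (0.778 to 1.23) and Tcf19 had 0.707 (0.523 to 0.948).

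Neighbours in the order of the 80 genes by ratio could be told apart only at its top. When each gene was set against the next one down, the interval of the quotient of their ratios included 1 at 78 of 79 steps. The exception was the step down from Glis1. Neighbours elsewhere in the order did not differ beyond counting error. Sorted neighbours have close ratios in any case, so these steps say nothing of genes further apart. Some of those did differ, as the related pairs below show.

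The ratio was larger in longer genes. The 80 genes had a median span of 88.2 kb, beside 48.2 kb for all listed genes, and ran from 3.19 kb for Jun to 735 kb for Rora. Of the 34 genes of 100 kb or more, 30 had a ratio above 1, or 88.2%, beside 72.2% of all listed genes of that span. An interval above 1 was found for 23 of the 34, or 67.6%, beside 46.2%, and an interval below 1 for Atf6 alone, or 2.94%, beside 9.35%. Of the 31 genes between 20 and 100 kb, 17 had a ratio above 1, or 54.8%, beside 21.4%. Of these 31, 7 had an interval above 1, or 22.6%, beside 6.26%, and 4 had one below 1, or 12.9%, beside 34.1%. Of the 15 genes under 20 kb, only Hoxb6 had a ratio above 1, which is 6.67%, beside 5.19%. Its interval lay above 1 too, as it did for 1.15% of all listed genes under 20 kb. The interval lay below 1 for 6 of the 15, or 40.0%, beside 56.5%. The median log2 ratios in these 3 groups were 0.47, 0.038 and -0.29 for the transcription factor genes and 0.25, -0.24 and -0.44 for all listed genes.

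Across the 80 genes, Spearman's rho between span and ratio was 0.70, and Pearson's r between log10 span and log2 ratio was 0.68. Across all 3089 listed genes with a known span, rho was 0.61. The points of these correlations are genes of the same 2 libraries and not independent replicates. The mean level rose with the ratio too, with a rho of 0.55 among the 80, and a higher count gives a narrower interval.

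**Figure D3:**
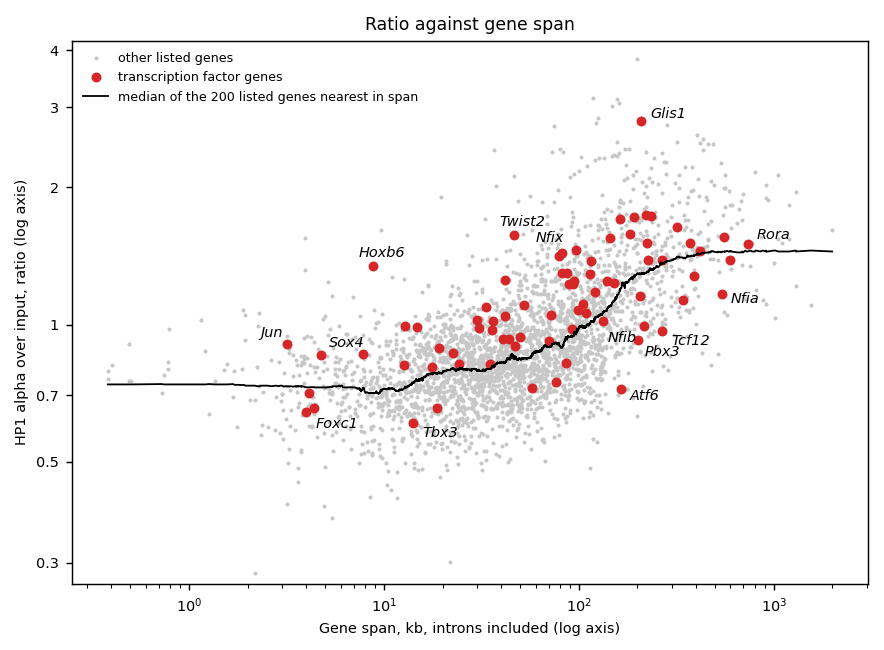
Ratio of HP1 alpha over input against gene span with introns, both on log axes, for 77 transcription factor genes (red) and the other listed genes (grey). The black line is the median of the 200 listed genes nearest in span. It rises to the right, and 59 of the 77 red points lie above it.

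To set span aside, each gene's ratio was divided by the median ratio of the 200 listed genes nearest to it in span. On this scale 61 of the 80 genes were above 0 in log2, or 76.2%, beside 50.7% of all listed genes with a known span. The median of the 80 was 0.18, beside 0.0047 for all. Of the 31 genes with an interval above 1, 20 kept it there, and 8 others came to have one. These 28 of the 80 stand beside 15.4% of all listed genes with a known span. An interval below 1 was found for 7 of the 80, beside 11.8%, and Tcf4 was among them though its interval lay above 1 before. The ratios of 19 genes turned from below 1 to above it, and those of Ebf1, Foxp1, Meis2, Nfia, Tcf4 and Zeb2 turned from above 1 to below it. Only Glis1 passed 2-fold, with a log2 value of 1.11.

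The genes that led on this scale were not those with the most counts. Hoxb6 followed Glis1 with 0.93, and Twist2 had 0.90. Nr2c2 had 0.69, E2f3 had 0.65, Nfix had 0.61 and Creb3l1 had 0.60. In contrast, Mecom had 0.10, Glis3 had 0.023 and Foxp1 had -0.063, close to genes of like span. The lowest values belonged to Atf6 with -0.73, Tcf12 with -0.49, Pbx3 with -0.49 and Nfib with -0.39. Tbx3 and Foxc1, which were low by ratio, had -0.28 and -0.17.

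The level per kb of span gave another order. Sox4, a gene of 4.78 kb, led with 85.7 CPM of listed counts per kb in the input and 73.7 with HP1 alpha. On this scale Foxc1 had 46.2 and 29.7, and Jun had 43.1 and 39.1. Rora was lowest, with 0.282 in the input and 0.424 with HP1 alpha. Glis3 and Mecom, long but much counted, had 4.45 and 5.09 in the input. Short genes thus had the highest density in both libraries and long genes the lowest. The listing limit fixes part of this order. The count needed for listing, divided by a short span, already gives a high density.

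**Figure D4:**
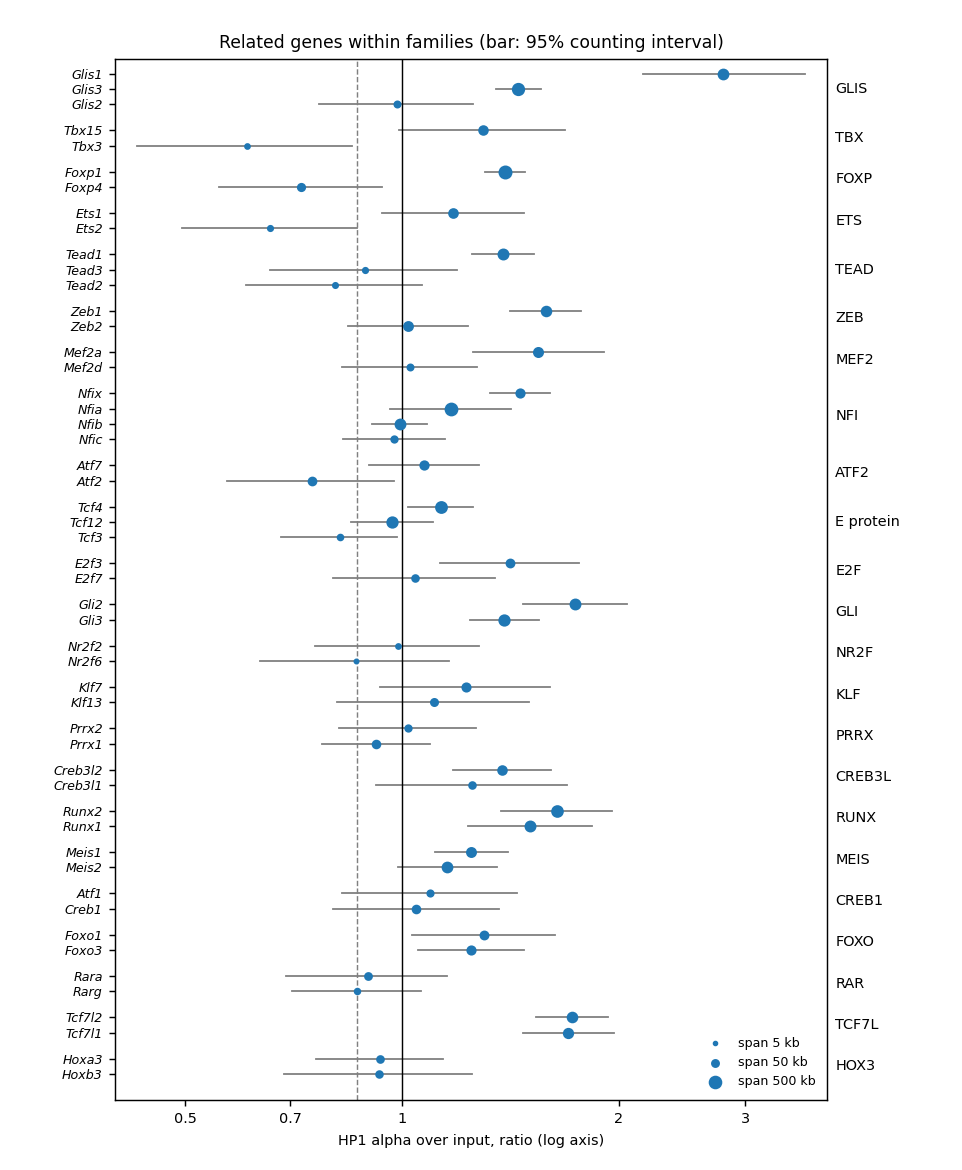
Ratio of HP1 alpha over input (points, log axis) with 95% counting intervals (bars) for the genes of 23 families, ordered by the spread within the family. Point size grows with gene span, the solid line marks a ratio of 1 and the dashed line the median of all listed genes. The widest spreads are those of GLIS, TBX and FOXP genes, and the TCF7L and HOX3 pairs coincide.

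Related genes were compared within 24 families that had more than 1 listed gene, which gave 35 pairs. The quotient of the 2 ratios of a pair does not depend on the scaling of the libraries. Its exact 95% interval excluded 1 in 17 of the 35 pairs and included 1 in the other 18, with no adjustment for the number of pairs. In 13 of the 17 the longer gene had the higher ratio, a share close to the 27 of all 35 pairs.

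The largest quotient was that of Glis1 over Glis2, 2.84-fold (1.98 to 4.08), and Glis1 exceeded Glis3 by 1.93-fold (1.47 to 2.53). Tbx15 exceeded Tbx3 by 2.13-fold (1.37 to 3.31), but the listing limit fixed the side of 1 for Tbx3, as it did for Glis1. The lowest ratio that Glis1 could have when listed with its input count lay above the ratios of Glis2 and Glis3. Listing thus fixed the direction of both Glis1 quotients, though not their size. Foxp1 exceeded Foxp4 by 1.92-fold (1.47 to 2.51).

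Ets1 exceeded Ets2 by 1.79-fold (1.25 to 2.59), and Tead1 exceeded Tead2 by 1.71-fold (1.27 to 2.32) and Tead3 by 1.56-fold (1.14 to 2.14). Zeb1 exceeded Zeb2 by 1.55-fold (1.24 to 1.94), and Mef2a exceeded Mef2d by 1.51-fold (1.11 to 2.04). The interval of the quotient also excluded 1 for Gli2 over Gli3, Glis3 over Glis2, Atf7 over Atf2 and Tcf4 over Tcf3. These quotients were between 1.25 and 1.48. Ets2, Tead2, Tead3, Foxp4 and Atf2 were listed through the input alone, which put a ceiling on their ratios. For Tead2 and Tead3 this ceiling lay below the ratio of Tead1, so listing fixed the direction of those quotients, though not their size. Relative to genes of like span the direction turned for Tcf4 over Tcf3, with a log2 difference of -0.35, for Glis3 over Glis2, with -0.29, and for Tead1 over Tead3, with -0.098. On that scale Tead1 over Tead2 came to 0.033, Mef2a over Mef2d to 0.12 and Foxp1 over Foxp4 to 0.17. Ets1 over Ets2 had 0.43 and Zeb1 over Zeb2 had 0.40. The direction stayed the same in 14 of the 17 pairs.

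In the NFI family, Nfix departed from the order of span. Nfix, which spans 96.5 kb, exceeded Nfib, which spans 217 kb, by 1.47-fold (1.29 to 1.68). It exceeded Nfia, the longest at 541 kb, by 1.25-fold (1.00 to 1.55), with a lower bound just above 1, and Nfic, the shortest at 35.7 kb, by 1.497-fold (1.24 to 1.81). Nfia, Nfib and Nfic did not differ among themselves beyond counting error. The other pair in which the shorter gene was clearly higher, apart from Glis1 over Glis3, was Gli2 over Gli3.

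Some close relatives had ratios that could not be told apart at this depth. The quotient was 1.01 (0.840 to 1.22) for Tcf7l2 over Tcf7l1 and 1.09 (0.832 to 1.42) for Runx2 over Runx1. It was 1.08 (0.886 to 1.32) for Meis1 over Meis2 and 1.04 (0.781 to 1.39) for Foxo1 over Foxo3. These intervals leave room for differences of up to about 1.22-fold to 1.42-fold. For Hoxa3 over Hoxb3, the latter with only 72 counts with HP1 alpha and 125 in the input, the quotient was 1.00 (0.695 to 1.45).

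A further list of 101 sequence-specific factors outside these name patterns, among them SMAD, STAT and NF-kappa B factors, had 50 listed genes. Of these, 10 had an interval above 1 and 8 had one below 1, beside 15.4% and 32.6% of all listed genes. None passed 2-fold, beside 2.36% of all listed genes called higher and 0.830% called lower. Their median log2 ratio was -0.12, between that of the 80 genes and that of the whole table, and their median span was 62.0 kb. Zfhx3, a giant homeodomain and zinc finger factor, had 961 counts with HP1 alpha and 829 in the input and a ratio of 1.87 (1.70 to 2.06). Trps1, a GATA-type repressor and the most counted gene of this list in the input, had 881 and 1633 counts, for a ratio of 0.871 (0.802 to 0.946). The difference between this list and the 80 genes was not tested.

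Partners of the factors gave mixed values. Of 11 listed Hippo pathway genes, Stk3, a kinase upstream of YAP and TEAD, was higher, with 612 counts with HP1 alpha and 434 in the input and a ratio of 2.28 (2.01 to 2.58). Wwtr1, the YAP relative TAZ, had 1.12 (0.969 to 1.29), and the median log2 ratio of these genes was 0.042. Of 7 Hedgehog genes upstream of GLI, 2 had an interval below 1 and none had one above 1, beside 32.6% and 15.4% of all listed genes. Their median of -0.15 was near the -0.21 of the table. Fbxw11, a ubiquitin ligase subunit for GLI proteins, had 0.987 (0.829 to 1.17), and the coreceptor gene Cdon had 0.869 (0.740 to 1.02). The highest of the 7 was Sufu with 1.17 (0.925 to 1.49), an interval that overlaps that of Gli3. Relative to genes of like span Sufu had 0.32 and Boc, another coreceptor gene, had 0.34 in log2, above Gli3 with 0.034 and below Gli2 with 0.43.

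Of 8 nuclear receptor co-regulators, 2 had an interval above 1 and 1 had one below 1, beside 15.4% and 32.6% of all listed genes. Tbl1xr1, a subunit of the receptor corepressor complex, had 387 counts with HP1 alpha and 349 in the input, a ratio of 1.79 (1.55 to 2.08). The corepressor gene Ncor1 had 240 and 607 counts, for a ratio of 0.639 (0.548 to 0.743). These subunits of 1 complex thus lay at opposite ends of the list. The median log2 ratio of the 8 genes was 0.077. Of 11 general coactivators and corepressors, 2 had an interval above 1 and 1 had one below 1, beside the same shares of all listed genes. Their median was 0.037. The acetyltransferase genes Crebbp and Ep300 had 0.951 (0.845 to 1.07) and 0.890 (0.770 to 1.03). The RUNX partner gene Cbfb had 0.796 (0.642 to 0.982) and Cbfa2t2 had 0.833 (0.670 to 1.03), both below Runx1 and Runx2.

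The 80 genes lay on 20 chromosomes, with no more than 9 on any of them. Only Runx2 and Atf5 overlapped another listed gene, but 51 of the 80 overlapped some other RefSeq gene and 44 overlapped a RefSeq lncRNA. Strand was not given for the counting, so reads from such antisense or nested transcripts cannot be told apart from those of the factor gene. Among the 7 genes whose span held an annotated microRNA was Hoxb3, with Mir10a, and the ratios of these 7 ran from 0.930 for Hoxb3 to 1.74 for Gli2.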

How the data were processed

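The authors deposited 1 table of read counts per gene for 1 HP1 alpha library and 1 input library of NIH3T3, with a fold ratio equal to the count ratio times 1.66, per the file headers from total mapped reads. Per the submitters' processing notes, the build was GRCm38, and the tools listed are featureCounts and STAR 2.6.0c, with no settings. The strand setting, the counted feature and the treatment of duplicates were not given in the sources used here. The count columns are headed MEF and mock, and mock was taken as the input because no other label can be meant, and 0 other sample columns were present.

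Counts were divided by listed totals. Ratios have Clopper-Pearson 95% intervals, log2 values used a pseudocount of 0.5, and calls needed 2-fold. No p-value was computed. Spans and positions came from RefSeq GRCm38.p6, in which all 80 genes matched by symbol. The calling was tested on simulated data for the 3134 genes: it found 49 of 50 genes raised 2.5-fold, 45 of 50 lowered to 0.4 and 0 of 2934 unchanged genes. The simulated counts varied by counting error alone (Poisson). They held no other variation between libraries, no PCR copies and no trend with span. The simulation therefore does not give the rate of false calls in the real libraries. Factors came from edgeR 4.0.16 and DESeq2 1.42.0, with SciPy 1.17.1 for intervals.

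Members, families and lists were chosen with earlier results of these data known. Values are given for called genes, the 12 highest and 6 lowest by interval bound, the 6 most abundant and the 3 most abundant per class, and others were named after their values were seen. A few of these genes are left out of the text and figures, and they stay in all totals.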

Additional observations from a re-analysis of the deposited data

How the results depend on the processing

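No paired analysis was possible because both groups consist of 1 library. Among the 80 genes, the number called higher, 1 as reported, was 2 with TMM factors (Glis1 among them), 4 with DESeq2 factors (Glis1, Gli2 and Etv6 among them; all listed genes gave 127 and 132 of 3134 under these factors, and 74 as reported), 0 at a minimum of 400 counts, 0 among genes with at least 100 input counts, and 14 at 1.5-fold. The number called lower was 0 under every alternative except 1.5-fold, which gave 5. The 11 genes with an interval below 1 became 4 with TMM factors, 3 with DESeq2 factors (Ets2 and Tbx3 among them), 2 at a minimum of 400 counts, and 7, of which 2 were among the 11, once ratios were taken relative to genes of like span. For all listed genes the share below 1 was 32.6% as reported, 13.7% under TMM and 12.4% under DESeq2. The 400-count limit left 38 of the 80 and 1018 listed genes, 34.2% of the latter below 1. Setting span aside gave 11.8%. The 31 with an interval above 1 were all among the 42 found with TMM and the 42 with DESeq2 factors. This had to be so, because either scaling raises every log2 ratio equally. Of all listed genes, 15.4% lay above 1 as reported, 23.3% under TMM and 23.9% under DESeq2. The median log2 ratio of 0.14 was 0.34 with TMM factors, 0.35 with DESeq2 factors and 0.32 at a minimum of 400 counts. Its distance from the median of all listed genes stayed at 0.35 under the scalings and was 0.18 relative to genes of like span. Under TMM factors 15 genes turned to a ratio above 1 and under DESeq2 factors 17 did, Pbx3, Nfib and Jun among them. None turned below 1 under these factors, whereas relative to genes of like span 19 turned above 1 and 6 turned below it. The 3 genes that encode no DNA-binding factor were left out in an alternative added after the data were seen, and 1 gene was then higher, with a median of 0.15. Genes near 100 counts have the widest intervals, up to 2.10 times from lower to upper bound.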
